A study of Mus musculus with 15 samples.

Results

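T cell receptor beta chains of CD8 T cells that bound an IGRP tetramer (TET) were compared between wild-type (WT) non-obese diabetic (NOD) mice and NOD mice with a mutation of Ifngr1. The set comprised every TET library with a label for its strain that was analysed here, 3 WT and 4 mutant, which is 7 of the 15 libraries of the series. All mice were 125 days old, and the design text gives 1 library of a fraction per mouse. Cells of spleen and non-draining lymph nodes were pooled within a mouse, stained with an H-2Kd tetramer that carried the IGRP206–214 peptide at 8 nM, and retained on a magnetic column. The CD8+CD44+ cells that passed through without binding gave the CD8 libraries (4 WT, 4 mutant), which serve below as the background fraction. The labels give the strain as Ifngr-1-mutant and state no allele, no cell numbers and no purity of the separation. For the 4th WT mouse the bound fraction is not analysed here.

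NOD mice develop autoimmune diabetes, in which CD8 T cells attack the insulin-producing beta cells of the pancreas. IGRP is a protein of these cells, and its 206–214 peptide on H-2Kd is a well-known target of such T cells. Ifngr1 encodes the ligand-binding chain of the interferon-γ receptor. Each T cell assembles its beta chain gene from V, D and J segments, with bases trimmed and added at the joins. The junction encodes the third complementarity-determining region (CDR3), the loop that most often lies over the peptide, and different bases can encode the same loop in separate cells. Progeny of a cell keep its nucleotide CDR3. A clonotype, here V family, J cluster (TRBJ1 or TRBJ2) and nucleotide CDR3, thus marks a clone or clones that made the same join.

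The WT libraries held 4968, 14958 and 2536 counts in 102, 126 and 97 clonotypes. The mutant libraries held 17294, 22448, 21966 and 60164 counts in 997, 2199, 1631 and 393 clonotypes. The median clonotype had 27.5, 11 and 20 counts in the WT libraries and 6, 4, 2 and 2 in the mutant libraries. The tables do not say whether counts are reads or molecular identifiers, so intervals cover counting error only. With 3 counts as the limit that a count of 0 allows, an unseen clonotype could hold 0.00499% of mutant TET 4 and 0.118% of WT TET 3. Fewer sampled cells and a narrower repertoire cannot be told apart in these libraries, and equal depth in counts does not equalize cells.

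A pair of libraries stood apart. WT TET 2 and mutant TET 4, of different strains, had 18 nucleotide clonotypes in common. These held 88.9% of mutant TET 4's counts and 25.4% of those in WT TET 2. Of the 20 largest clonotypes of mutant TET 4, 17 were among them. Each of the 18 had more counts in mutant TET 4, by a factor of 2.19 to 263 with a median of 20.9, but that library has 4.02 times the counts of WT TET 2. As shares of the library the factor ran from 0.545 to 65.4 with a median of 5.19, and 1 of the 18 had the lower share in mutant TET 4. Whether these are the same joins made in different mice or material carried between libraries was not tested. Many of the tests between strains over all clonotypes are therefore also given with neither WT TET 2 nor mutant TET 4. Where no such value is given, both libraries are included.

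The receptors found in at least 5 of the 7 TET libraries, or in every library of one strain and none of the other, are shown as recurrent receptors. They are a small part of the 379 receptors found in 2 or more libraries. Here and below a receptor is a V family with an amino acid CDR3. Every one used TRBV13, the V family of the IGRP-specific clone NY8.3. Each CDR3 is written 5′ to 3′ as deposited, and capitals mark the codons of the CDR3 core, that is all residues but the first 4 and the last 6.
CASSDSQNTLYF, TRBJ2-4, in 6 libraries: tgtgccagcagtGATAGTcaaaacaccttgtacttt
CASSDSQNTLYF, in WT TET 2 and mutant TET 4: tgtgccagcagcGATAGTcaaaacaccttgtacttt
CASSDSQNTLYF, in WT TET 2 and mutant TET 1: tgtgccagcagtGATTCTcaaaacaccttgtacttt
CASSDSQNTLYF, in mutant TET 4: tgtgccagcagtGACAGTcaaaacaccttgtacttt
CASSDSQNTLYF, in WT TET 1: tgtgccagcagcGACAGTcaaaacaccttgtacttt
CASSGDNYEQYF, TRBJ2-7, in 6 libraries: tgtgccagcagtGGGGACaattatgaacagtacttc
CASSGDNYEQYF, in mutant TET 1 and 2: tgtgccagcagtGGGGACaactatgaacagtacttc
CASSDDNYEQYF, TRBJ2-7, in 5 libraries: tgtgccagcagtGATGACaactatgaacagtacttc
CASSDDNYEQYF, in mutant TET 2: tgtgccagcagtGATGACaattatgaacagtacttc
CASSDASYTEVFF, TRBJ1-1, in the 4 mutant libraries: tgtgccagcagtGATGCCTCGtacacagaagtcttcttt
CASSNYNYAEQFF, TRBJ2-1, in the 4 mutant libraries: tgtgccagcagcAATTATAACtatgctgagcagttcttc

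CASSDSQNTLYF was encoded by 5 nucleotide sequences that differ only in synonymous bases. The first of them had 1094 counts in WT TET 1, 804 in WT TET 2, 552 in mutant TET 1, 7 in each of mutant TET 2 and mutant TET 3, and 1764 in mutant TET 4. It was not seen in WT TET 3. The variant shared by WT TET 2 and mutant TET 4 had 146 and 5510 counts there, and the variant shared by WT TET 2 and mutant TET 1 had 1341 and 397. Up to 3 of the sequences were found in 1 library, in WT TET 2 and in mutant TET 4. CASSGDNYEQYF had 0, 156 and 59 counts in the WT libraries and 1985, 1778, 133 and 4506 in the mutant libraries, and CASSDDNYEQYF had 0, 244 and 0 against 704, 129, 777 and 1788. Both therefore reached every mutant library, while the zeros of the WT libraries allow up to 0.0604% of WT TET 1 and 0.118% of WT TET 3.

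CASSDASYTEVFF and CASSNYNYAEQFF met the rule of every mutant library and no WT library, and no receptor met the reverse. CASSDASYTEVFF had 10, 12, 2376 and 85 counts in mutant TET 1 to 4, and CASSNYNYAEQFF had 20, 2416, 85 and 34. Each was large in 1 mutant library and small in the other 3, with a single nucleotide sequence throughout. Both were also counted in WT CD8 libraries. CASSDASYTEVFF had 28 counts in WT CD8 1 and 8 in WT CD8 4, and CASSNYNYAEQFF had 19, 7 and 6 counts in WT CD8 1, 3 and 4. Apart from 2376 and 2416, all these TET and CD8 counts lie more than 10-fold below the receptor's largest count. Whether they were carried between libraries was not tested.

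Some of the large clonotypes outside these receptors are shown as examples of the head of the libraries' size distributions. They are a selection, and larger ones are only named below. The first led WT TET 2, the second WT TET 3 and the third mutant TET 4; the last 2 were also among the 3 largest of their library.
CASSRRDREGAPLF, TRBV13 and TRBJ1-5: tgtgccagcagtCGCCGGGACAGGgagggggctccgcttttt
Largest of WT TET 3, TRBV13 and TRBJ2-2: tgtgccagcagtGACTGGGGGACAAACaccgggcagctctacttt
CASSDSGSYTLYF, TRBV13 and TRBJ2-4: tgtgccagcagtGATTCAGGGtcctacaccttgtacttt
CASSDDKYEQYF, TRBV13 and TRBJ2-7, mutant TET 3: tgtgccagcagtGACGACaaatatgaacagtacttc
The TRBV4 clonotype of mutant TET 3, TRBJ2-5: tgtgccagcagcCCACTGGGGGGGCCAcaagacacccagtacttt

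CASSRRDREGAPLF, with positively charged arginines in its core, held 15.1% of WT TET 2 (exact binomial 95% interval 14.5 to 15.7) and 2.98% of WT TET 1. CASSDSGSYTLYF held 13.1% of mutant TET 4 (12.9 to 13.4) and was present in all 3 WT libraries but in no other mutant library. The largest clonotype of WT TET 3 held 4.89% of its counts (4.08 to 5.80). The TRBV4 clonotype held 4.38% of mutant TET 3 (4.11 to 4.66), and all the other clonotypes among the 3 largest of the 7 libraries used TRBV13. Besides the sequences shown above, they were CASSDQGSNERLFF (2.68% of WT TET 1), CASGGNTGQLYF (11.8% of WT TET 2), and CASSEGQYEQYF and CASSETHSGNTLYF (4.14% and 3.63% of WT TET 3). In the mutant libraries they were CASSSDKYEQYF (6.02% of mutant TET 2) and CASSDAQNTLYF (9.48% of mutant TET 4).

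Clone sizes were compared first. Counts in WT libraries lay in middle-sized and large clonotypes, whereas 3 of the 4 mutant libraries held more of theirs in small ones. Clonotypes of at least 1% of a library's counts held 76.8%, 86.6% and 79.0% of the counts in the WT libraries and 34.2%, 34.5%, 39.98% and 92.4% in the mutant libraries. Mutant TET 4 was above every WT library and the other 3 were below every one. The means were 80.8 ± 5.12% (SD, n = 3) and 50.3 ± 28.2% (n = 4), and the difference did not pass the test (two-sided exact permutation p = 0.143, adjusted 0.262 over 11 tests). With neither WT TET 2 nor mutant TET 4 the means were 77.9 ± 1.55% and 36.2 ± 3.27% (exact p = 0.1, a value that 2 against 3 libraries cannot go below). In the CD8 fraction such clonotypes held on average 0.251% of WT and 0% of mutant counts.

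By size class, the strains overlapped at the top of the distribution. Clonotypes of 5% or more numbered 1, 6 and 0 in the WT libraries and 1, 3, 2 and 7 in the mutant libraries. Those of 1 to 5% numbered 33, 12 and 40 in WT and 10, 5, 7 and 12 in mutant libraries. Those of 0.01 to 0.1% held 0.931 ± 0.300% of WT counts and 24.2 ± 18.8% of mutant counts, with mutant TET 4 lowest of its group at 1.59%, still above the highest WT value of 1.22%. Since 1 count is more than 0.01% of WT TET 1 and WT TET 3, no clonotype there could fall in the smallest class, and these classes were not tested.

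**Figure D1:**
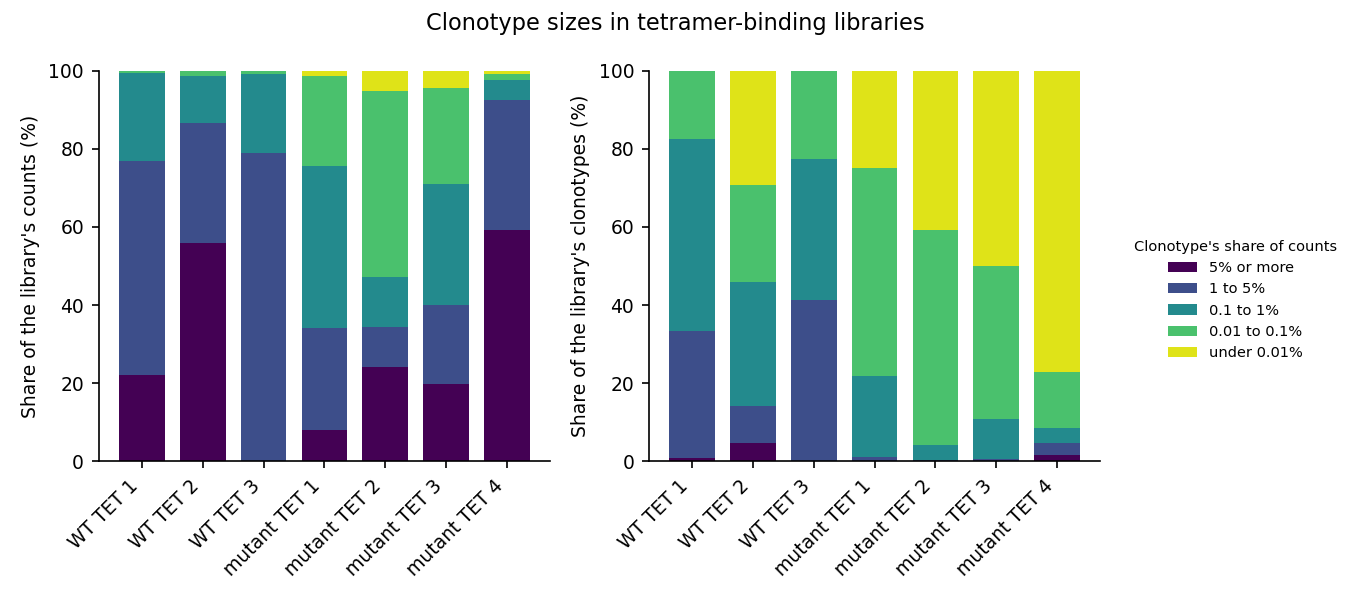
Stacked bars give the share of counts (left) and of clonotypes (right) in each of the 7 TET libraries, by the share of the library's counts that a clonotype holds. Clonotypes of 1% or more fill 76.8 to 86.6% of the counts in the WT bars, 34.2 to 39.98% in mutant TET 1 to 3 and 92.4% in mutant TET 4.

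The number of largest clonotypes that together held 50% of the counts was 15, 5 and 19 in the WT libraries and 61, 124, 37 and 6 in the mutant libraries. Mutant TET 1, 2 and 3 were above all WT libraries, and mutant TET 4 lay among them. The ratio of geometric means was 3.20 (exact p = 0.229, adjusted 0.314), and 3.87 with neither WT TET 2 nor mutant TET 4 (exact p = 0.2). The inverse Simpson number, which the largest clonotypes dominate, was 16.8, 14.4 and 51.1 in WT and 66.4, 42.6, 36.2 and 15.3 in mutant libraries, a ratio of 1.53 (exact p = 0.4, adjusted 0.489) that was 1.60 with neither of those libraries (exact p = 0.5). The groups overlapped in both measures.

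Clonotypes seen with a single count made up 10.8%, 29.4% and 20.6% of the clonotypes in the WT libraries and 24.9%, 28.8%, 38.4% and 48.1% in the mutant libraries. The means of 20.3 ± 9.30% and 35.1 ± 10.4% did not differ by the test (exact p = 0.143, adjusted 0.262). Leaving out WT TET 2 and mutant TET 4 gave 15.7 ± 6.95% and 30.7 ± 6.98% (exact p = 0.1). Because depth differed, the share was also computed at the depth of the shallowest TET library, 2536 counts. There the expected shares were 17.1 ± 6.79% and 48.3 ± 8.08%, with an exact p of 0.0286, below which 3 against 4 libraries cannot go. With that value in place of its own, the adjusted p was 0.157. At full depth the CD8 means were 25.0% for WT and 30.2% for mutant mice (exact permutation p = 0.486).

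V and J pairing was compared next, to see whether particular joins, and not V or J totals alone, differed. WT libraries held 48, 46 and 47 different V-J pairs and mutant libraries 134, 155, 147 and 110, which also held more clonotypes. Only 10 pairs passed edgeR's filter on low numbers, which asks for a minimum in at least 3 libraries of whichever strain, and all 10 were pairs of TRBV13. edgeR's quasi-likelihood test called 0 of 10 pairs at an adjusted p under 0.05 (0% of the pairs tested), with 2 at an unadjusted p under 0.05. DESeq2 called 1. Over the 10 pairs the median log2 difference, mutant minus WT, was -0.22. In the CD8 fraction edgeR called 0 of 132 pairs (0%), with 8 at an unadjusted p under 0.05.

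The pair TRBV13 with TRBJ2-4, the join of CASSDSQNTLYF and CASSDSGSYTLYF, had the smallest p. It made up 7.84%, 12.7% and 8.25% of the clonotypes in the WT libraries and 4.12%, 3.42%, 3.68% and 7.65% in the mutant libraries. All 4 mutant libraries were below all 3 WT libraries, with mutant TET 4 just under WT TET 1. The edgeR log2 difference was -1.25 (SE 0.39, adjusted p = 0.0768). DESeq2 put it at -1.14 with an adjusted p of 0.0424, and TMM normalization in edgeR at -1.14 with 0.0206. In edgeR it passed without mutant TET 4 (-1.43, adjusted p = 0.000204), WT TET 1 (-1.39, adjusted p = 0.0154) or WT TET 3 (-1.35, adjusted p = 0.0353). Without WT TET 2 the log2 difference was -0.97 (edgeR adjusted p = 0.385), and leaving out mutant TET 4 too it was -1.13 (adjusted p = 0.476). The call thus differed with the tool and with single libraries. By counts the pair held 21.2 ± 8.36% of WT and 20.2 ± 24.7% of mutant libraries, where mutant TET 4 reached 56.5%.

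The other tested pairs with a TRBJ2 segment also had a negative log2 difference, and none passed. TRBV13 with TRBJ2-1 made up 7.23 ± 1.89% of WT and 4.16 ± 0.456% of mutant clonotypes, with an edgeR log2 difference of -0.78 (SE 0.34, adjusted p = 0.117). TRBV13 with TRBJ2-7, the most frequent pair in 6 of the 7 libraries (tied in WT TET 2 with TRBJ2-4 and in WT TET 3 with TRBJ2-1), made up 10.9 ± 1.71% and 7.68 ± 2.12% (-0.64, SE 0.31, adjusted p = 0.202). TRBV13 with TRBJ2-2 gave 3.21 ± 2.29% and 2.43 ± 0.191% (-0.49, SE 0.45), and TRBV13 with TRBJ1-3 gave 2.44 ± 1.45% and 2.93 ± 1.16% (0.43, SE 0.58). With J named only by its cluster, as the tables name it, TRBV13 with TRBJ2 fell by 0.66 on the log2 scale (edgeR adjusted p = 0.00402). This call is given with all 7 libraries only, WT TET 2 and mutant TET 4 included. TRBV13 as a whole made up 58.5 ± 6.41% of WT and 45.7 ± 0.825% of mutant clonotypes. The direction was reversed among the 90 largest clonotypes, a comparison added after the data were seen. These are most of a WT library (97 to 126 clonotypes) but a small part of a mutant library (393 to 2199). Among the 90 largest TRBV13 made up 53.3%, 74.4% and 52.2% in WT and 96.7%, 100%, 95.6% and 82.2% in mutant libraries (exact p = 0.0286, adjusted 0.0816). By counts it held 83.4 ± 14.1% and 83.3 ± 8.30%, and at equal depth it made up 62.8 ± 14.3% and 60.0 ± 8.44%.

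**Figure D2:**
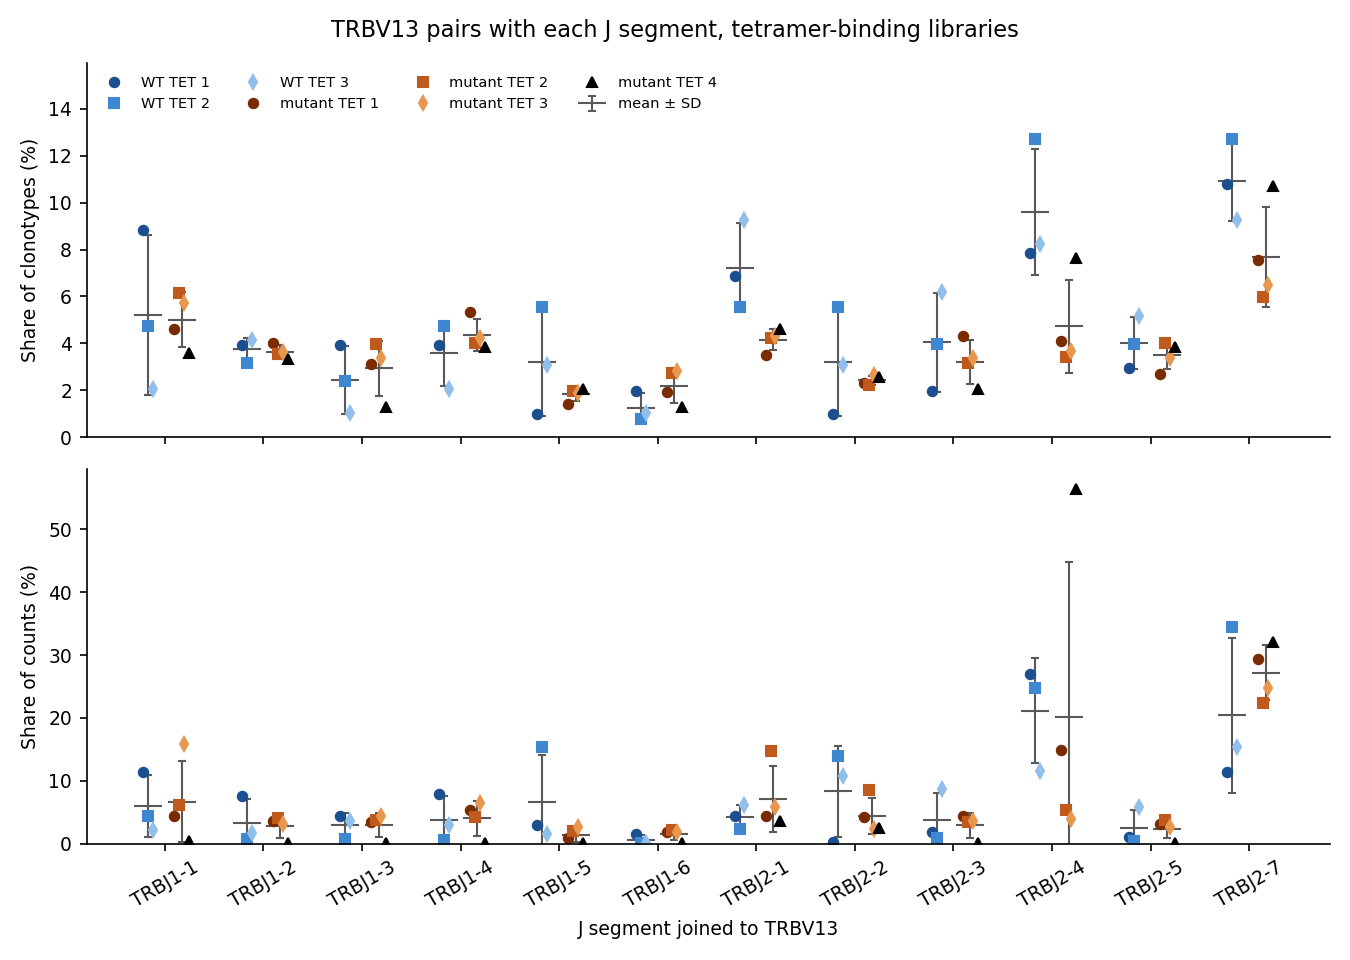
Points give the share of clonotypes (top) and of counts (bottom) held by TRBV13 joined to each of the 12 J segments, 1 point per TET library, with the group mean and SD, whose lower ends are cut at 0. At TRBJ2-4 the 4 mutant libraries lie at 3.42 to 7.65% of clonotypes, below the WT range of 7.84 to 12.7%, while mutant TET 4 stands at 56.5% of counts.

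Pairing beyond the totals was tested with each library's own V and J totals as the offset. edgeR called 0 of 10 pairs (0% of those tested) and found 0 at an unadjusted p under 0.05. The 5 pairs of smallest p were TRBV13 with TRBJ2-4 (log2 -0.24, SE 0.28), TRBJ2-1 (-0.27, SE 0.32), TRBJ1-2 (0.31, SE 0.41), TRBJ2-2 (0.24, SE 0.44) and TRBJ1-3 (0.11, SE 0.51), each with an adjusted p of 0.932. For TRBV13 with TRBJ2-4, the number of clonotypes over that given by the totals was 1.46, 1.28 and 1.13 in WT and 1.04, 1.07, 1.01 and 1.37 in mutant libraries. It was above 1 in all 7 libraries and the groups overlapped. With neither WT TET 2 nor mutant TET 4 the log2 difference was -0.28 (edgeR adjusted p = 0.993). A WT library held between 8 and 16 clonotypes of this pair, and a change in a pair also moves the V and J totals it is set against. The test therefore had very little power, and 0 calls do not show that pairing was alike.

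CDR3 length was examined because the short loops of the recurrent receptors have 12 or 13 residues. Mean length over clonotypes was 13.53, 13.48 and 13.85 residues in the WT libraries and 13.91, 13.88, 13.91 and 13.75 in the mutant libraries. Only mutant TET 4 lay inside the WT range. The means were 13.62 ± 0.197 and 13.86 ± 0.0796 (exact p = 0.0857, adjusted 0.236), beside 13.88 and 13.91 in WT and mutant CD8 libraries. With neither WT TET 2 nor mutant TET 4 the means were 13.69 and 13.90 (exact p = 0.1). The spread of lengths within a library averaged 1.47 residues for WT and 1.42 for mutant libraries (exact p = 0.771), or 1.53 and 1.43 with those libraries left out (exact p = 0.5).

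A single length passed the test. edgeR called 1 of 6 lengths, 16.7% of those tested, which was 12 residues and lower in mutant libraries. CDR3s of 12 residues made up 15.7%, 24.6% and 14.4% of the clonotypes in WT and 12.4%, 10.55%, 10.4% and 12.7% in mutant libraries. Every mutant library was below every WT library. The log2 difference was -0.77 (SE 0.20, edgeR adjusted p = 0.0046) and with DESeq2 it was -0.75 (adjusted p = 0.0023). Without WT TET 2, which held the highest share, it was -0.45 with an edgeR adjusted p of 0.875, and leaving out mutant TET 4 as well it was -0.47 (adjusted p = 0.681). It also missed the threshold without possible carry-over (-0.60, edgeR adjusted p = 0.0603) and without single counts (-0.85, adjusted p = 0.0818). The share in the CD8 fraction was 11.1 ± 0.814% in WT and 10.7 ± 0.369% in mutant mice, where 0 of 9 lengths were called (0%), with 0 at an unadjusted p under 0.05. With each clonotype counted once, mutant TET libraries thus had 12-residue CDR3s near the CD8 share and WT TET libraries above it. By counts every TET library was above every CD8 library of its strain. Such CDR3s then held 40.9 ± 21.0% of mutant TET and 11.2 ± 0.548% of mutant CD8 counts. For WT the shares by counts were 39.9 ± 25.6% and 11.9 ± 1.37%. The difference between fractions was not tested here.

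**Figure D3:**
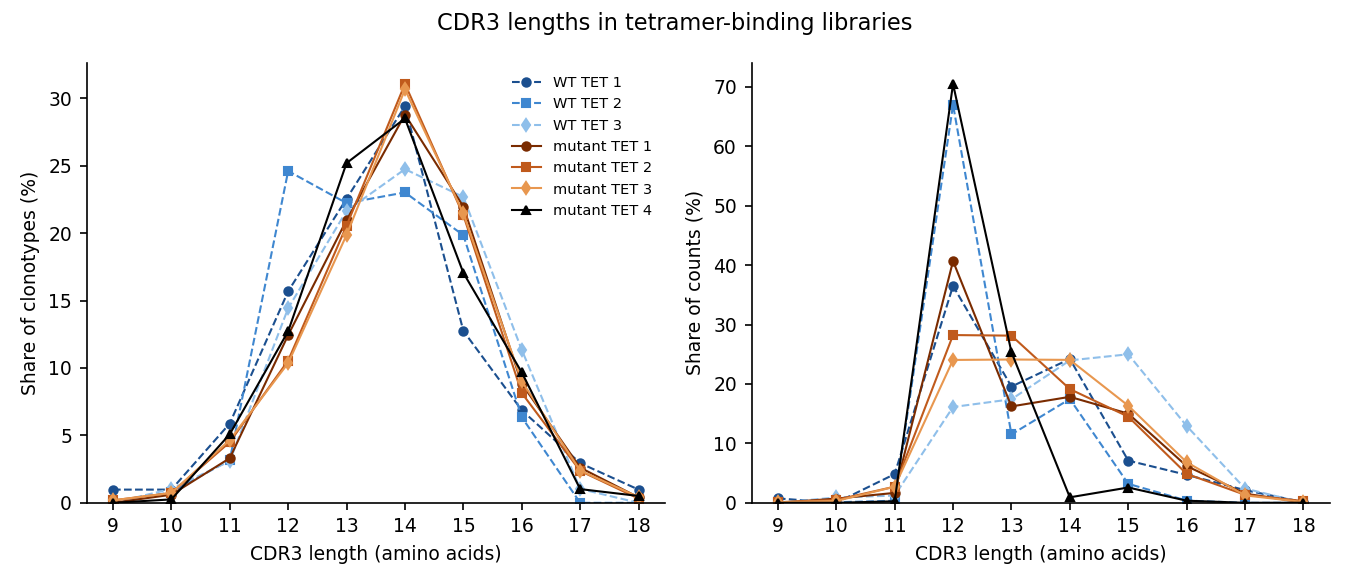
Lines give the share of clonotypes (left) and of counts (right) at each CDR3 length, 1 line per TET library, dashed for WT and solid for mutant. At 12 residues WT TET 2 reaches 24.6% of clonotypes and the mutant libraries 10.4 to 12.7%, while by counts WT TET 2 and mutant TET 4 rise to 66.98% and 70.5%.

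The residues of the CDR3 core were compared in the same way. The core was cut by position, so residues encoded by a V or J segment were not removed from it individually. edgeR called 1 of 18 residues (5.56% of those tested), with 3 at an unadjusted p under 0.05. Aspartate, which is negatively charged, made up 13.5%, 16.9% and 15.01% of core residues in WT and 10.6%, 10.9%, 10.4% and 12.3% in mutant libraries. The groups did not overlap. The log2 difference was -0.50 (SE 0.12, edgeR adjusted p = 0.0015). Without WT TET 2 it was -0.40 (adjusted p = 0.254), with neither WT TET 2 nor mutant TET 4 -0.42 (adjusted p = 0.234), and over clonotypes of at least 2 counts -0.42 (adjusted p = 0.0872). With the core ending 2 residues later it was -0.34 (edgeR adjusted p = 0.0752). The CD8 libraries had 10.1 ± 0.506% in WT and 9.94 ± 0.0869% in mutant mice, and 0 of 19 residues were called there (0%), with 0 at an unadjusted p under 0.05.

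Among the residues that did not pass, tryptophan made up 2.75%, 4.78% and 2.68% of the core in WT and 1.92%, 2.14%, 2.10% and 2.51% in mutant libraries (log2 -0.72, SE 0.26, edgeR adjusted p = 0.0549). Tyrosine was low throughout, with 0.826%, 0.456% and 0.536% in WT and 1.67%, 1.43%, 1.30% and 1.22% in mutant libraries (1.25, SE 0.48, adjusted p = 0.0698). The WT values for tyrosine rest on 3, 2 and 2 residues. These residues were named after their values were seen. Core net charge was -0.235, -0.397 and -0.443 per clonotype in WT and -0.216, -0.221, -0.227 and -0.277 in mutant libraries, so that the WT cores were on average more negative (-0.358 ± 0.109 against -0.235 ± 0.0285; exact p = 0.0571, adjusted 0.210). With neither WT TET 2 nor mutant TET 4 they were -0.339 ± 0.147 and -0.221 ± 0.00562 (exact p = 0.1). Mean core hydropathy on the Kyte-Doolittle scale, where lower is more hydrophilic, was -1.12 in WT and -1.05 in mutant libraries (exact p = 0.2, adjusted 0.314), and -1.13 and -1.02 without those libraries (exact p = 0.2).

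Among the largest clones the mutant means of both called features lay above the WT means, without passing a test. This comparison by size was added after the data were seen, and its 20 exact tests were adjusted together. In the 90 largest clonotypes of each library, aspartate made up 13.6%, 17.7% and 14.6% of core residues in WT and 19.3%, 19.1%, 17.5% and 21.9% in mutant libraries (exact p = 0.0857, adjusted 0.190). Only mutant TET 3 lay within the WT range. Below the 90 largest it was 12.5%, 15.1% and 20.8% in WT and 9.87%, 10.6%, 10.05% and 9.92% in mutant libraries (exact p = 0.0286, adjusted 0.0816). The 90 largest are most of a WT library, leaving 12, 36 and 7 clonotypes below them, but a small part of a mutant library. TRBV13 differed in the same directions as aspartate. It made up 60.0% of WT and 93.6% of mutant clonotypes in the 90 largest, and 65.6% and 40.5% below them.

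For 12-residue CDR3s the share in the 90 largest was 20.4 ± 8.41% in WT and 24.7 ± 6.93% in mutant libraries (exact p = 0.486). Below the 90 largest it was 11.2 ± 2.98% and 9.71 ± 1.31% (exact p = 0.371). By counts it was 39.9 ± 25.6% and 40.9 ± 21.0% (exact p = 0.971), and at equal depth 20.9 ± 9.81% and 15.9 ± 9.15% (exact p = 0.457). TRBV13 with TRBJ2-4 made up 10 ± 4.84% of the 90 largest in WT and 12.8 ± 7.08% in mutant libraries (exact p = 0.657). Below the 90 largest it made up 14.2 ± 12.6% and 3.27 ± 0.259% (exact p = 0.0286, adjusted 0.0816), where the WT shares rest on 1 or 2 clonotypes in each library. The lower share of all 3 features in mutant libraries was therefore measured with each clonotype counted once, and was not found among the 90 largest. The number of small clonotypes moved with the result, and its part in it was not tested.

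**Figure D4:**
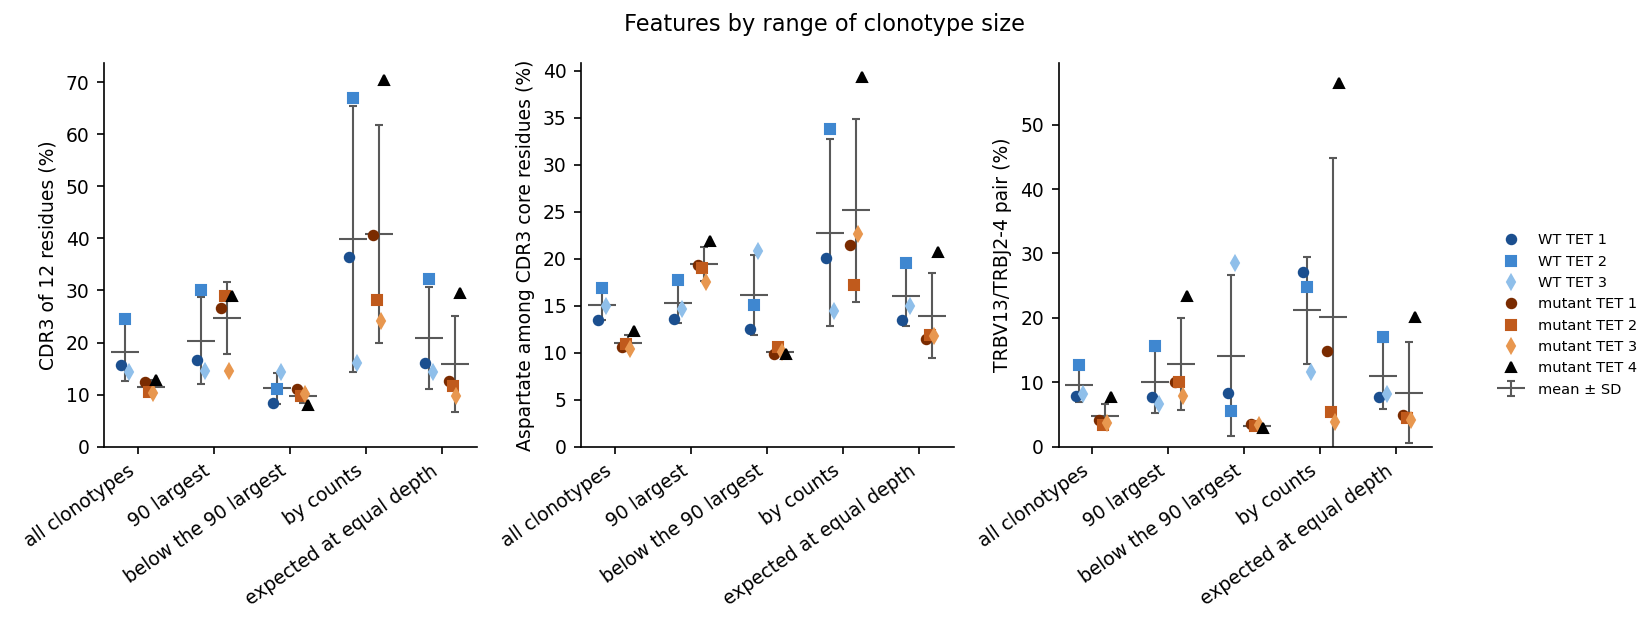
Points give the share of CDR3s of 12 residues, of aspartate among core residues and of the TRBV13/TRBJ2-4 pair, 1 point per TET library, over all clonotypes, the 90 largest, those below them, by counts, and expected at equal depth, with the group mean and SD (lower ends cut at 0). Mutant aspartate runs from 10.4 to 12.3% over all clonotypes, below WT, and from 17.5 to 21.9% in the 90 largest.

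In TRBV13 clonotypes among the 90 largest, the first core position was looked at alone, since aspartate there is frequent in the sequences above. Aspartate stood at that position in 47.9%, 43.3% and 53.2% of them in WT and 44.8%, 38.9%, 45.3% and 50% in mutant libraries. Glycine followed with 16.6 ± 5.16% and 15.7 ± 2.20%, and glutamate with 8.58 ± 2.04% and 9.49 ± 1.05%. The strains overlapped for each residue, and no test was run.

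Near-identical receptors within a library were counted among its 90 largest clonotypes. The percentage with another of the 90 at 1 amino acid substitution, with the same V family and length, was 2.22%, 15.6% and 6.67% in WT and 4.44%, 10%, 6.67% and 23.3% in mutant libraries. The highest values of the groups were those of WT TET 2 and mutant TET 4. The means of 8.15 ± 6.79% and 11.1 ± 8.46% did not differ by the test (exact p = 0.657, adjusted 0.723), beside 2.5% and 4.17% in WT and mutant CD8 libraries. With neither WT TET 2 nor mutant TET 4 they were 4.44 ± 3.14% and 7.04 ± 2.796% (exact p = 0.5).

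Sharing between mice was compared last. The 7 libraries held 5001 receptors, of which 379 (7.58%) were found in 2 or more. Of these, 331 were found only in mutant libraries, 4 only in WT libraries and 44 in both strains. Without WT TET 2 and mutant TET 4 these numbers were 295, 3 and 22. The mutant libraries are larger in clonotypes and number 6 pairs against 3, so the counts alone say little about the strains.

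At full depth the pairs of mutant TET 1, 2 and 3 shared 119, 54 and 163 receptors (1 with 2, 1 with 3, 2 with 3). Mutant TET 4 shared 19, 34 and 34 with these. WT pairs shared 8, 3 and 5, and pairs across strains 2 to 16, with the 16 being WT TET 2 with mutant TET 4. At 2536 counts in each library the expected number was 21.7 for mutant pairs, 4.98 for WT pairs and 4.68 between strains, and the 3 highest values, 20.5 to 45.1, joined mutant TET 1, 2 and 3. Mutant minus WT pairs was 16.7 (exact p = 0.0571, adjusted 0.210), with 7.36 when mutant TET 2 and 30.2 when mutant TET 4 was left out. The excess of within-strain over between-strain pairs was 1.29 on the log2(number + 1) scale (exact p = 0.0286, the smallest possible, adjusted 0.210). Leaving out mutant TET 2 gave 0.75 and leaving out mutant TET 3 gave 0.76 (exact p = 0.2 for each), and 2.46 with neither WT TET 2 nor mutant TET 4 (exact p = 0.1, the smallest possible). In the CD8 fraction at 17116 counts the excess was 0.09 (exact p = 0.257).

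**Figure D5:**
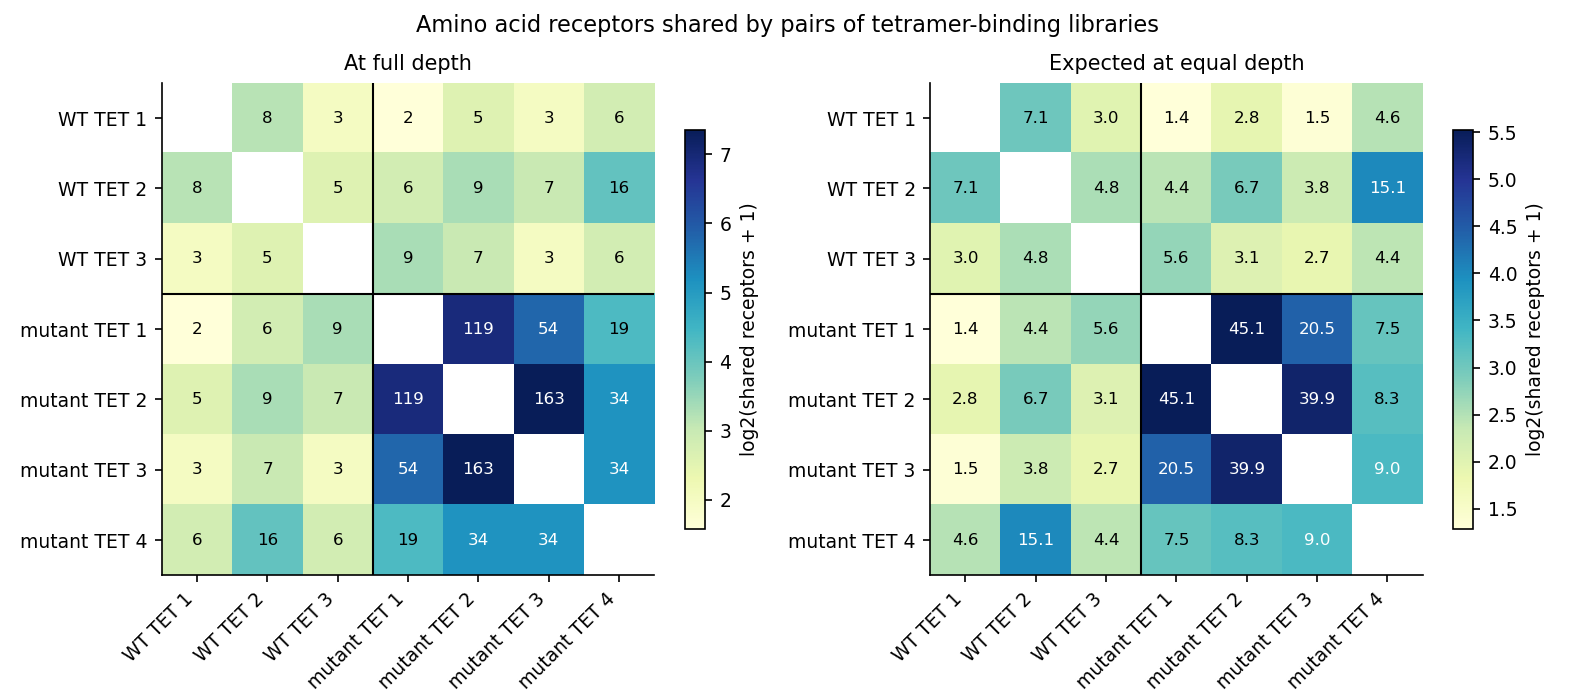
Each cell gives the number of amino acid receptors shared by a pair of TET libraries, at full depth (left) and expected at equal depth (right), coloured by log2(number + 1), and black lines part WT from mutant. The highest values, 54 to 163 at full depth, join mutant TET 1, 2 and 3, and the highest value across strains is 16 for WT TET 2 with mutant TET 4.

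The higher numbers shared by mutant pairs were not seen among the largest clones. Among the 90 largest of each library, mutant pairs and WT pairs both shared 5.33 receptors on average and pairs across strains 3.42 (within minus between 0.91 on the log2 scale, exact p = 0.0571). The 90 largest are most of a WT library (95 to 119 receptors) but a small part of a mutant library (383 to 2159). WT pairs therefore kept their full-depth numbers of 8, 3 and 5, and only the mutant libraries were cut to their largest clones. Morisita-Horn similarity, which weighs receptors by their counts, averaged 0.194 in mutant pairs, 0.201 in WT pairs and 0.143 across strains (exact p for within minus between = 0.343). Receptors found only in mutant libraries, but in several of them, had a largest count of 10 at the median, against 86.5 for those of both strains.

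Most receptors shared by TET libraries had the same nucleotide sequence. At least 1 sequence was the same for 395 of the 423 shared receptors of mutant pairs (93.4%), for 16 of 16 in WT pairs and for 66 of 79 across strains (83.5%), where a receptor counts once in each pair that shares it. Single pairs across strains ran from 40 to 100%. In pairs of CD8 libraries the share was 30.2% within mutant, 38.8% within WT and 32.0% across strains. No test was run, since pairs share libraries. Within mutant pairs, 93 of the 396 shared nucleotide clonotypes (23.5%) had counts that differed 10-fold or more and 109 (27.5%) differed by less than 2-fold. Across strains 41 of 69 (59.4%) differed 10-fold or more, of which 14 of 18 came from WT TET 2 with mutant TET 4. With neither library it was 14 of 24 (58.3%), against 79 of 318 (24.8%) in mutant pairs. These factors are of counts, and depth differs between libraries. Leaving out clonotypes held at 10 times the count or more in another library left 92, 30 and 126 shared receptors in the pairs of mutant TET 1, 2 and 3. It took the mean from 70.5 to 51.5 in mutant pairs, from 5.33 to 1.67 in WT pairs and from 6.58 to 2.75 across strains. Whether such clonotypes were carried between libraries was not tested.

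What the shared receptors had in common differed between those of both strains and those of mutant mice alone. Of the 44 found in both strains, 79.5% used TRBV13, 36.4% had 12 residues and 56.8% were also seen in a CD8 library. Of the 331 found only in mutant libraries, 49.5% used TRBV13, 13.3% had 12 residues and 28.1% were in a CD8 library. Receptors of a single TET library stood at 44.6%, 10.3% and 17.7%. With neither WT TET 2 nor mutant TET 4, the 22 receptors of both strains stood at 72.7%, 22.7% and 45.5%, and the 295 of mutant mice alone at 51.2%, 13.9% and 28.1%. The receptors of both strains had the higher shares in each case. Over all 7 libraries the mean CDR3 length was 13.07, 13.92 and 13.89 residues in the 3 classes. More than 1 nucleotide sequence encoded 12.9% of the shared and 1.60% of the single-library receptors. These shares are descriptions and were not tested.

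In each library the shared receptors held more of the counts than of the receptors. They were 15.8%, 21.8% and 21.1% of the receptors in WT and 16.9%, 13.6%, 13.8% and 19.6% in mutant libraries. By counts they held 39.4%, 76.6% and 27.5% in WT and 41.9%, 46.6%, 48.4% and 93.5% in mutant libraries. The highest values were again those of WT TET 2 and mutant TET 4, and receptors shared with the other strain held 61.4% and 92.6% of these, against 31.7% and 22.2% in WT TET 1 and 3 and 4.94 to 21.9% in mutant TET 1 to 3.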

How the data were processed

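Beta chain libraries were made from RNA with 9-nt molecular identifiers, per the labels' protocols. The authors deposited a count per nucleotide CDR3 with its fraction of the library; the deposited fraction is over more counts than the table lists, so shares were recomputed from the counts. The aligner, the caller and the build were not given in the sources used here. After 4 entries of alpha chain segments were left out, 5545 TET clonotypes remained. V is named by family only. J segments were assigned from the J length in the tables (RefSeq length, GRCm38.p6, plus 19) and the last 12 bases of the CDR3 (at most 2 mismatches), leaving 13 TET clonotypes (0.234%) unassigned.

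For single values, two-sided exact permutation tests enumerated 35 regroupings, adjusted by Benjamini-Hochberg over 11 tests; a lone smallest p of 0.0286 cannot pass that. Clonotypes per V-J pair, length and residue were tested with edgeR 4.0.16 (quasi-likelihood, clonotype totals as library size, filterByExpr minimum count 10, no dispersion trend) and with DESeq2 1.42.0, after tests on simulated data. Features past an adjusted p of 0.05 were named, otherwise the 5 of smallest p; the 3 largest clonotypes of a library and recurrent receptors were named by the rules given with them. Members, lists and comparisons were chosen with earlier results of these data known. Libraries are separate mice per the design text. Replicate numbers mark different mice in the 2 strains and pair nothing. Alternatives left out each library, single counts, possible carry-over and the count filter, or changed the clonotype definition, weighting, core and normalization.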

Additional observations from a re-analysis of the deposited data

Results flagged for a closer look

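Outliers were looked for in groups of 4 libraries with Dixon's test, in which chance singles out about 1 in 20 groups; 33 groups were tested and 4 values passed. Clonotypes of at least 1% held 92.4% of the counts of mutant TET 4, against 34.2 to 39.98% in the other mutant TET libraries. Receptors shared with another TET library held 93.5% of its counts, against 41.9 to 48.4%. TRBV13 with TRBJ2-4 made up 7.65% of its clonotypes, against 3.42 to 4.12%. WT CD8 1 was the only CD8 library with a clonotype of at least 1%, which held 1.00% of its counts. The other WT CD8 libraries stood at 0, so any value above 0 would have passed, and the rate of 1 in 20 does not apply. The clonotype of WT CD8 1 is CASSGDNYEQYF, in the nucleotide variant seen in mutant TET 1 and 2 and in no other TET library. As a receptor, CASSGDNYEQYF was found in 6 TET libraries.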

How the results depend on the processing

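The 11 exact tests had 141 alternatives, of which 130 kept the direction. None passed after adjustment, and none could have. Each replaced 1 p at a time, and with so few libraries the exact p cannot go low enough. Mutant minus WT mean length turned to -0.108 weighted by counts and -0.155 in the 90 largest clonotypes, core net charge to -0.194 and -0.0991, and core hydropathy to -0.00819 without single counts and -0.351 in the 90 largest. Mutant minus WT pairs turned to -0.00706 in Morisita-Horn similarity and was 0 among the 90 largest of each library. Leaving out each library moved the spread of lengths from -0.111 to 0.0450 and the share with a near-identical neighbour from -1.11 to 6.67. Called V-J pairs numbered 0 to 2 with a library left out, and 1 with DESeq2, TMM, no filter, or J clusters. Called lengths numbered 0 to 1, and 0 without single counts, without possible carry-over, and with neither WT TET 2 nor mutant TET 4. Called residues numbered 0 to 3, were 2 with TMM, and 0 without single counts, with the core lacking the last 4 residues, and without both libraries. That last setting, and the size ranges, were chosen after seeing the data. With a library left out, TRBV13 with TRBJ2-2 ran from -0.89 to 0.26 (0.25 without both libraries). Beyond totals, TRBV13 ran from -0.088 to 0.61 with TRBJ1-2 (-0.10 without both), from -0.23 to 0.48 with TRBJ1-3 (-0.20 without both) and from -0.041 to 0.69 with TRBJ2-2. By size range, mutant minus WT was 4.35 (90 largest) and 0.990 (counts) percentage points for 12 residues, 4.13 and 2.40 for aspartate, and 2.83 in the 90 largest for TRBV13 with TRBJ2-4. The causes were not tested.

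With the replicate number as a block, edgeR called 1 V-J pair (TRBV13 with TRBJ2-4), 0 pairs beyond totals, 0 lengths and 1 residue. The number is no pairing: deviations of same-numbered libraries over 18 core residues correlated with r of 0.181, -0.427 and 0.000931, and 0 of 3 WT libraries matched its own number best. The WT libraries held at most 126 clonotypes each, so that 1 clonotype moves their shares more than those of a mutant library.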
